A study of Homo sapiens with 96 samples.

Results

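TXNIP and its alpha-arrestin relatives ARRDC1, ARRDC2, ARRDC3 and ARRDC4 were followed by RNA sequencing in hTERT-RPE1 cells, a human retinal pigment epithelial line immortalised with telomerase. These 5 genes were selected by name, and each has a row in all 10 deposited expression tables, which together hold 23611 gene names, 13469 of them in every table. TXNIP was included because its RNA was high in S-phase cells of these same tables, and ARRDC3 because it is the nearest measured neighbour of LUCAT1, a long non-coding RNA knocked down in the study. The difference between S-phase windows and asynchronous cells is therefore described for the 5 genes with no test.

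The alpha-arrestins are a family of adaptor proteins that share the arrestin fold and link membrane cargo to ubiquitin ligases of the NEDD4 family, which leads to internalisation and sorting of the cargo. TXNIP binds thioredoxin and lowers glucose uptake by promoting endocytosis of the glucose transporters GLUT1 and GLUT4, and its transcription is known to follow intracellular glucose through MondoA and MLX, which bind paired E-box-like sites in its promoter. ARRDC4 is a close relative under the same glucose-responsive control, ARRDC3 acts on beta-adrenergic receptors and integrin beta 4, and ARRDC1 drives budding of vesicles from the plasma membrane through the ESCRT machinery. ARRDC2 is less studied.

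The fraction libraries came from cells in 5 S-phase windows labelled T0-2, T2-4, T4-6, T6-8 and T8-10 and from asynchronous cells, with 2 libraries of each in whole-cell nascent, whole-cell input, nuclear nascent and nuclear input RNA. In the knockdown libraries, cells received LNA GapMeRs (antisense oligonucleotides that direct cleavage of a nuclear RNA) against LINC00704, LUCAT1 or MIAT, or a control LNA. Synchronised knockdown and control cells were taken at points labelled S0, S2, S4 and S6 with 2 libraries each, and asynchronous cells gave 3 libraries per knockdown and 2 of the control. Synchronisation was by mimosine, an iron chelator that arrests cells before replication, at 400 uM for 22 h. Mimosine is not named for the asynchronous libraries, so in any comparison with them S phase and the block cannot be told apart. All windows and points follow the block, so between them progress through S phase and time since the block cannot be told apart either. The labels give no unit for the windows or points, and it is not stated whether libraries of a group are separate cultures. The p-values below therefore cover only library-to-library spread, possibly technical.

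Reads recovered from the values, in units of 1e6, ranged between 6.39 and 28.6 per fraction library, 9.11 and 23.4 per synchronised library and 26.4 and 50.5 per asynchronous knockdown or control library. Of 12 pigment epithelium markers, between 4 and 5 passed the filter in each table, among them KRT8, KRT18, MITF and OTX2, whereas RPE65, BEST1 and TYR did not pass in any. In nuclear nascent RNA the 12 summed to 29.1 and 25.16 RPKM in asynchronous cells against 10.8 to 16.75 in windows. In nuclear input they summed to 26.99 and 30.06 against 10.56 to 18.43. In the whole-cell fractions the groups overlapped. Any part of this split in the values below was not tested. Markers of other cell types were near 0 except for HBB, at 72.4 RPKM in 1 whole-cell nascent T0-2 library. The targeted RNAs were lower in the knockdown libraries: across the synchronised libraries LUCAT1 lay at 0.133 to 0.379 RPKM under its knockdown against 0.440 to 0.994 in controls, MIAT at 0.0718 to 0.221 against 0.243 to 0.324, and LINC00704 (listed as MANCR) at 0.550 to 1.61 against 1.89 to 4.04.

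Promoters are shown for TXNIP and ARRDC4, the genes whose window and asynchronous libraries were apart in all 4 fractions, and for ARRDC3, which passed the test under LUCAT1 knockdown. Sequences are from RefSeq on GRCh38.p14, printed on the gene's strand, and capitals mark matches to CCAAT, to the E-box CACGTG, to the forkhead-type motif GTAAACA or to a spaced E-box pair, in which 2 E-box-like sites lie 5 bases apart (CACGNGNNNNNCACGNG), each searched on both strands. The TXNIP run covers chr1:145996580-145996829 (minus strand), the ARRDC4 run chr15:97960453-97960702 (plus strand), both ending just before an annotated start, and the ARRDC3 run chr5:91380108-91380137 (minus strand), upstream of its inner start.
TXNIP: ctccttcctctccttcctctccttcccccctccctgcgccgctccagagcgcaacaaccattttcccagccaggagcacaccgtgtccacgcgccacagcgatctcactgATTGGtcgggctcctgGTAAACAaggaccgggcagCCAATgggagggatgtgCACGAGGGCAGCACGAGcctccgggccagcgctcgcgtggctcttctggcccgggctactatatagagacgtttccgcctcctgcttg
ARRDC4: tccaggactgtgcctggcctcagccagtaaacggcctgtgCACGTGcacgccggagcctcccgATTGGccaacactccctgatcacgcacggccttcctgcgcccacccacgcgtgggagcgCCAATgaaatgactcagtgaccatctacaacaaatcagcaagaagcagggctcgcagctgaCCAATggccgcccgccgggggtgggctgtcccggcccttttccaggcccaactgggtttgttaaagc
ARRDC3: agcccggcactTGTTTACcacggcgcggcc

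The TXNIP window held 2 CCAAT matches, 1 GTAAACA match and 1 spaced E-box pair, which lay at -88 to -72 relative to the start. That spaced pair was found in 16 of 35116 annotated promoter windows of the same length (0.0456%), whereas CCAAT was in 32% of them, CACGTG in 6.34% and GTAAACA in 2.98%. The ARRDC4 window held 3 CCAAT matches and 1 CACGTG at -210 to -205, and no spaced pair in these letters. ARRDC3 held GTAAACA at -29 to -23 from its inner start, and ARRDC1 held 1 CCAAT. A match describes the letters and is no evidence of binding, and the motifs overlap no other match shown here.

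**Figure D1:**
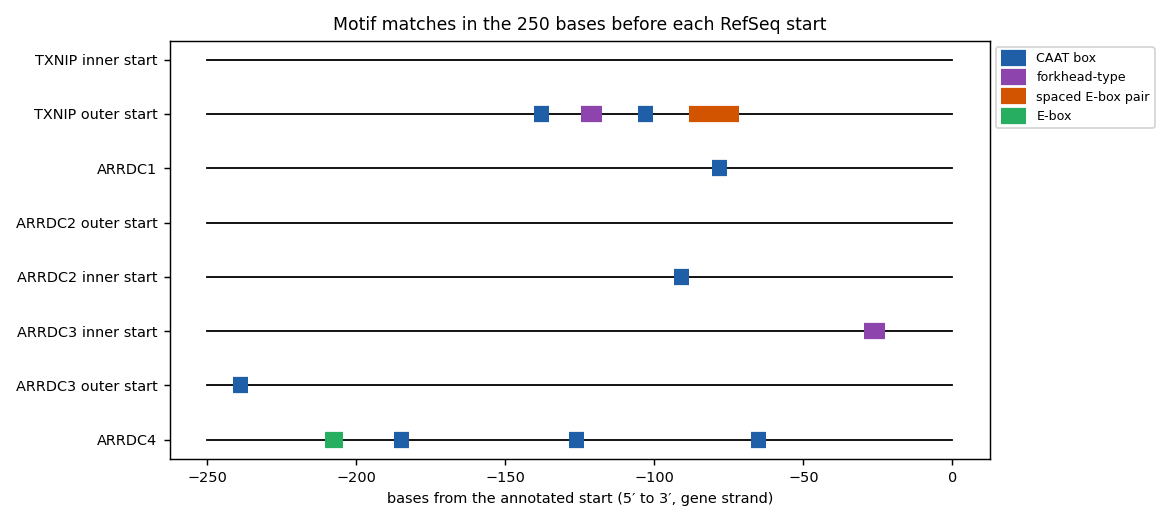
Motif matches in the 250 bases before each RefSeq start of the 5 genes, with position in bases from the start on the x axis (gene strand) and one line per annotated start. CAAT box stands for CCAAT and E-box for CACGTG; the spaced E-box pair appears on the TXNIP line and CACGTG on the ARRDC4 line.

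In the annotation, TXNIP spans chr1:145992435-145996579, ARRDC1 chr9:137605686-137615360, ARRDC2 chr19:18001124-18014102, ARRDC3 chr5:91368631-91383317 and ARRDC4 chr15:97960703-97973833. ARRDC3 lies 54229 bp from LUCAT1 (chr5:91302986-91314402), and the next measured gene, ADGRV1, lies 138549 bp away. Values are RPKM, reads scaled to gene length and library depth, and the length in the files matched the whole gene span, so a level includes intronic reads and introns. In these bulk libraries, fewer expressing cells and less RNA per cell cannot be told apart.

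Per length, TXNIP had the highest mean of the 5 genes in the whole-cell nascent libraries. There the mean over the 10 window libraries was 144 RPKM for TXNIP, 7.35 for ARRDC3, 3.39 for ARRDC1, 1.69 for ARRDC4 and 0.962 for ARRDC2. In the 2 asynchronous libraries the means were 15.9 for TXNIP, 3.64 for ARRDC1, 3.30 for ARRDC3, 0.939 for ARRDC2 and 0.471 for ARRDC4. Over the window libraries TXNIP stood clear of ARRDC3, and ARRDC1 of ARRDC4, whereas ARRDC3 (2.79 to 12.4) overlapped with ARRDC1 (2.78 to 4.13), and ARRDC4 (1.08 to 2.45) with ARRDC2 (0.537 to 1.23). The order was not kept in the synchronised libraries: at S0, ARRDC3 averaged 13.3 RPKM and TXNIP 7.10 under LUCAT1 knockdown, and in control cells TXNIP averaged 6.82, ARRDC1 6.62 and ARRDC3 6.24, with overlapping libraries.

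TXNIP RNA was higher in every S-phase library than in both asynchronous libraries, in all 4 RNA fractions. In whole-cell nascent RNA, TXNIP had 87.9 and 77.5 RPKM in T0-2, 179 and 138 in T2-4, 164 and 181 in T4-6, 202 and 93.2 in T6-8 and 149 and 167 in T8-10, against 25.3 and 6.47 in asynchronous cells. In nuclear input RNA it had 31.4 and 73.8 in T0-2, 84.4 and 94.6 in T2-4, 101 and 115 in T4-6, 89.4 and 122 in T6-8 and 105 and 128 in T8-10, against 17.9 and 19.4 in asynchronous cells. The first window was the lowest of the 5 by its mean in both fractions, and no window library came down to the asynchronous ones. In nuclear nascent RNA, TXNIP ran from 36.3 to 115 RPKM in windows against 12.3 and 23.3 in asynchronous cells. In whole-cell input it ran from 25.7 to 139 against 9.51 and 13.7.

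ARRDC4 had the same split at far lower levels. In nuclear nascent RNA it had 1.01 and 1.21 RPKM in T0-2, 1.90 and 2.33 in T2-4, 2.05 and 2.49 in T4-6, 1.67 and 1.36 in T6-8 and 1.51 and 1.25 in T8-10, against 0.353 and 0.375 in asynchronous cells. In whole-cell nascent RNA it had 1.11 and 1.13 in T0-2, 2.42 and 2.45 in T2-4, 1.80 and 2.09 in T4-6, 1.54 and 1.08 in T6-8 and 1.53 and 1.71 in T8-10, against 0.429 and 0.513. Here T2-4 and T4-6 had the highest means, whereas TXNIP stayed high through T8-10. ARRDC4 in nuclear input ran from 1.03 to 2.55 RPKM in windows against 0.339 and 0.372, and in whole-cell input from 0.396 to 1.44 against 0.241 and 0.339.

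**Figure D2:**
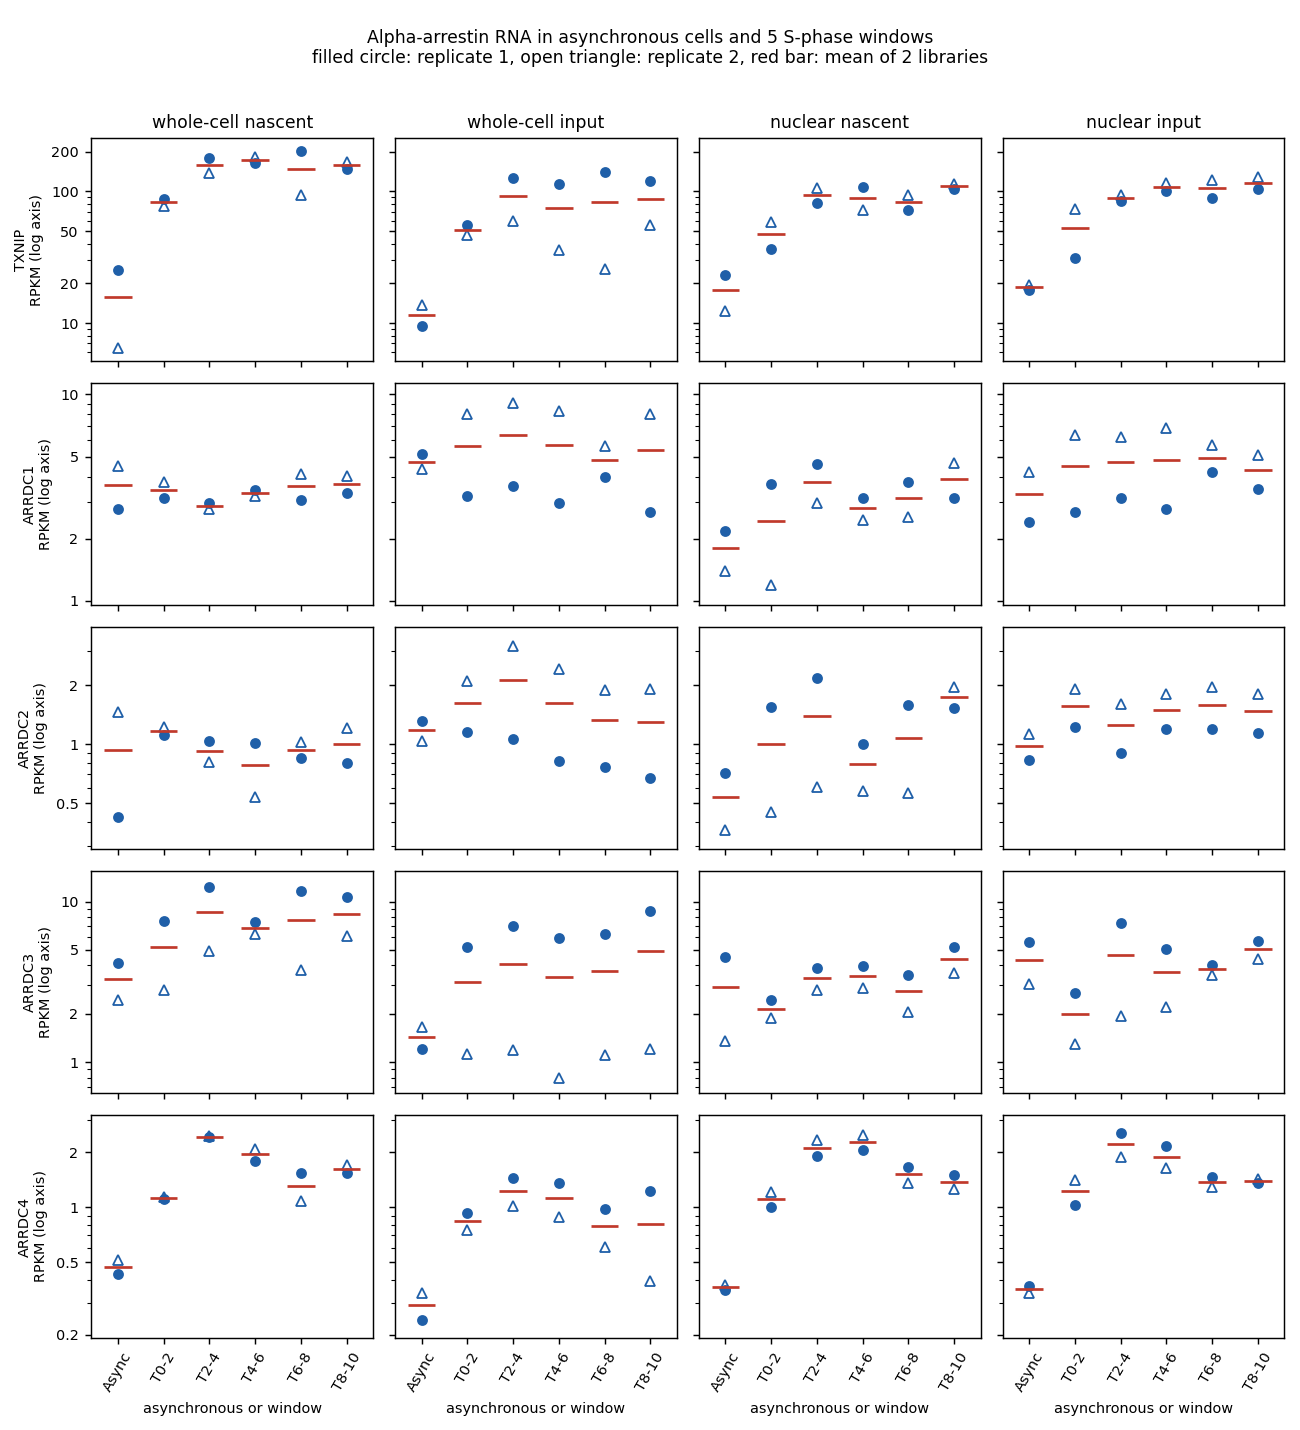
RPKM of the 5 genes (log axis) in asynchronous cells and the 5 S-phase windows, for the 4 RNA fractions. Circles are replicate 1, triangles replicate 2 and red bars the mean of 2 libraries, and window and asynchronous libraries are apart in all 4 fractions for TXNIP and ARRDC4 and for none of the other 3 genes.

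ARRDC3 differed between replicate numbers more than between windows and asynchronous cells in whole-cell input RNA. There replicate 1 of the windows lay between 5.18 and 8.71 RPKM and replicate 2 between 0.798 and 1.20, against 1.20 and 1.66 in asynchronous cells. In nuclear nascent RNA, ARRDC3 ran from 1.87 to 5.18 in windows against 1.35 and 4.53, so the groups overlapped. In nuclear input ARRDC3 had 2.71 and 1.29 in T0-2, 7.31 and 1.93 in T2-4, 5.03 and 2.20 in T4-6, 4.05 and 3.49 in T6-8 and 5.65 and 4.40 in T8-10, against 5.59 and 3.05 in asynchronous cells. Its replicate 1 library was the higher of the pair at every window of that fraction, and both T0-2 libraries lay below both asynchronous ones. ARRDC1 ran from 2.78 to 4.13 RPKM in whole-cell nascent windows against 2.79 and 4.50, and ARRDC2 from 0.537 to 1.23 against 0.424 and 1.45. In nuclear nascent RNA, ARRDC1 ran from 1.19 to 4.66 against 1.40 and 2.19, and ARRDC2 from 0.449 to 2.19 against 0.363 and 0.708. Both overlapped with asynchronous cells in these fractions. Whether strand was counted is not stated for the fractions, so reads of ARRDC1 and ARRDC1-AS1 cannot be told apart where they overlap. In the annotation that overlap runs only from chr9:137615332 to 137615360, at the end of ARRDC1. ARRDC5, a further alpha-arrestin outside the 5, was listed only in fraction tables, at 0.321 RPKM or less in whole-cell nascent windows.

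Differences below come from limma on log2(RPKM + 0.25), keeping genes that reached 0.5 RPKM in 2 or more libraries of the table. All 5 genes passed this filter in the fraction and synchronised tables, and 4 passed in the asynchronous knockdown tables, where ARRDC4 was too low. A gene is called where the Benjamini-Hochberg adjusted p over all genes of that table is under 0.05. The added 0.25 understates changes of low genes such as ARRDC4.

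As a description, windows minus asynchronous for TXNIP was 3.39 ± 0.45 (SE) in whole-cell nascent, 2.53 ± 0.69 in whole-cell input, 2.23 ± 0.33 in nuclear nascent and 2.24 ± 0.30 in nuclear input RNA, on the log2 scale. For ARRDC4 it was 1.38 ± 0.17, 1.12 ± 0.32, 1.61 ± 0.15 and 1.59 ± 0.16 in the same order of fractions. Across all genes, 0.406%, 0.0305%, 4.5% and 4.57% passed the threshold in this contrast, which chose TXNIP and is read no further. For ARRDC3 it was 1.01 ± 0.50, 0.85 ± 1.03, 0.27 ± 0.37 and -0.26 ± 0.48. For ARRDC1 the difference lay between -0.07 ± 0.23 and 0.72 ± 0.35, and for ARRDC2 between 0.16 ± 0.32 and 0.78 ± 0.46.

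Within single replicate numbers, a split made after the values were seen, the TXNIP difference was 2.56 and 4.22 for numbers 1 and 2 in whole-cell nascent, 3.44 and 1.62 in whole-cell input, 1.68 and 2.78 in nuclear nascent and 2.07 and 2.42 in nuclear input RNA. ARRDC4 gave 1.47 and 1.29, 1.53 and 0.70, 1.61 and 1.61, and 1.601 and 1.586 in the same order of fractions. In whole-cell input the other 3 genes took opposite signs in the 2 numbers, with ARRDC3 at 2.23 and -0.53, ARRDC1 at -0.61 and 0.80 and ARRDC2 at -0.48 and 0.97. Signs were also opposite in whole-cell nascent RNA for ARRDC1 (0.18 and -0.32) and ARRDC2 (0.84 and -0.53). The same held in nuclear nascent RNA for ARRDC3 (-0.28 and 0.82).

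Whether the genes differed between windows after the block was tested among the 5 windows and between the last and the first. Without a replicate block, none of the 5 genes passed either test in any fraction (limma). In nuclear input, same-numbered libraries deviated together in every pair of groups. With the block there, TXNIP passed both tests and ARRDC3 the second, with values given below. In whole-cell input these correlations ranged from -0.562 to 0.939, and ARRDC3 split by replicate number in the windows. With the block in whole-cell input, none of the 5 genes passed either test. Across all genes, without the block, 0%, 0%, 0.0204% and 0.218% passed among windows in whole-cell nascent, whole-cell input, nuclear nascent and nuclear input RNA, and 0%, 0%, 0.358% and 0.415% passed for T8-10 against T0-2. Before adjustment, ARRDC4 passed 0.05 among windows in whole-cell nascent, nuclear nascent and nuclear input RNA, with limma adjusted p = 1, 0.34 and 0.703. TXNIP passed at that unadjusted level between T8-10 and T0-2 in both nuclear fractions.

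TXNIP in T8-10 minus T0-2 was 1.23 ± 0.42 in nuclear nascent (limma adjusted p = 0.166) and 1.26 ± 0.38 in nuclear input RNA (adjusted p = 0.238). In whole-cell RNA it was 0.93 ± 0.58 nascent and 0.68 ± 0.89 input. ARRDC3 in nuclear input had 5.65 and 4.40 RPKM in T8-10 against 2.71 and 1.29 in T0-2, a difference of 1.30 ± 0.62 (limma adjusted p = 0.448). LUCAT1 in the same libraries had 0.514 and 0.533 RPKM in T8-10 against 2.73 and 1.67 in T0-2 (-1.63, limma adjusted p = 0.0278). Nuclear input is the fraction in which same-numbered libraries deviated together in every pair of groups. With the replicate number as a block there, the T8-10 minus T0-2 adjusted p was 0.0130 for TXNIP and 0.0227 for ARRDC3, and TXNIP among windows had an adjusted p of 0.0474 (limma). Under that block 22.2% of all genes passed for T8-10 against T0-2 and 13.1% among windows. ARRDC4, ARRDC1 and ARRDC2 did not pass with or without the block. ARRDC4 differed between T8-10 and T0-2 by 0.44 ± 0.22 in whole-cell nascent and 0.18 ± 0.21 in nuclear input RNA.

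The control-LNA libraries gave another synchronised course, in libraries apart from the fractions. TXNIP had 6.54 and 7.11 RPKM at S0, 34.5 and 38.8 at S2, 39.2 and 69.9 at S4 and 66.7 and 68.5 at S6. S0 lay below every later point, and S6 did not overlap with S2. S6 minus S0 was 3.26 ± 0.45 (limma adjusted p = 0.00341, higher in 2 of 2 libraries), and 16 of 9870 genes had a larger difference. The test among the 4 points was also passed (limma adjusted p = 0.0143). Across all genes, 0.871% passed for S6 against S0 (0.527% higher) and 0.405% among points. Without the first or the second S0 control library, the adjusted p among points was 0.316 or 0.168, and without the second S6 library 0.0554. For S6 against S0, leaving out the first S0 library gave 3.21 with an adjusted p of 0.0703.

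ARRDC4 had 0.265 and 0.228 RPKM at S0, 0.333 and 0.648 at S2, 0.451 and 0.978 at S4 and 0.572 and 0.975 at S6 in the same control libraries. All 6 later libraries lay above both S0 libraries, with S6 minus S0 at 1.02 ± 0.34 (limma unadjusted p = 0.00968, adjusted p = 0.273). Both S0 libraries lay below 0.5 RPKM, so ARRDC4 passed the filter only through libraries where it was higher. These p-values are therefore given as a description only. ARRDC3 took another course, with 5.90 and 6.58 RPKM at S0, 2.38 and 3.92 at S2, 1.20 and 4.08 at S4 and 3.71 and 4.65 at S6. Its highest libraries were those of S0, where TXNIP was lowest, although S6 minus S0 did not pass (-0.56 ± 0.54). ARRDC1 and ARRDC2 differed by -0.04 ± 0.28 and -0.16 ± 0.41.

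LUCAT1 knockdown was accompanied by more ARRDC3 RNA in synchronised cells. ARRDC3 had 18.6 and 7.93 RPKM in knockdown against 5.90 and 6.58 in control cells at S0, and 18.7 and 9.68 against 2.38 and 3.92 at S2. At S4 it had 6.09 and 10.5 in knockdown against 1.20 and 4.08 in control cells, and at S6 5.96 and 9.94 against 3.71 and 4.65. Both knockdown libraries lay above both control libraries at each of the 4 points. The mean difference over points was 1.39 ± 0.27 (limma adjusted p = 0.00565), and 88 of 9870 genes had a larger one. It passed under all 22 alternative settings and leave-outs, with values from 1.19 to 1.59 and adjusted p from 0.00183 to 0.0170 (limma). The knockdown moved many genes: 27.2% of all genes passed, 19% higher and 8.12% lower, and the median over all genes was 0.11.

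By point, the ARRDC3 difference was 0.94 at S0, 2.05 at S2, 1.72 at S4 and 0.85 at S6, each ± 0.54. The test of whether it differed among points did not pass (limma unadjusted p = 0.357, adjusted p = 0.999), as for the other 4 genes, and 0% of all genes passed it. Of other listed genes in the wider region of LUCAT1, 6 were tested and none passed in this comparison. They include CETN3, the highest of the 6, at 893230 bp from LUCAT1, and NR2F1, the lowest, which lies farther away than 1835405 bp. ARRDC3 lies 54229 bp away, so neither describes the near surroundings of LUCAT1. Of 5 tested pigment epithelium markers, SERPINF1 rose (0.45) and KRT8 fell (-0.52) under this knockdown, with a summed level of 10.8 to 37.1 RPKM in knockdown against 16.5 to 32.3 in control libraries, and their part in the result was not tested.

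**Figure D3:**
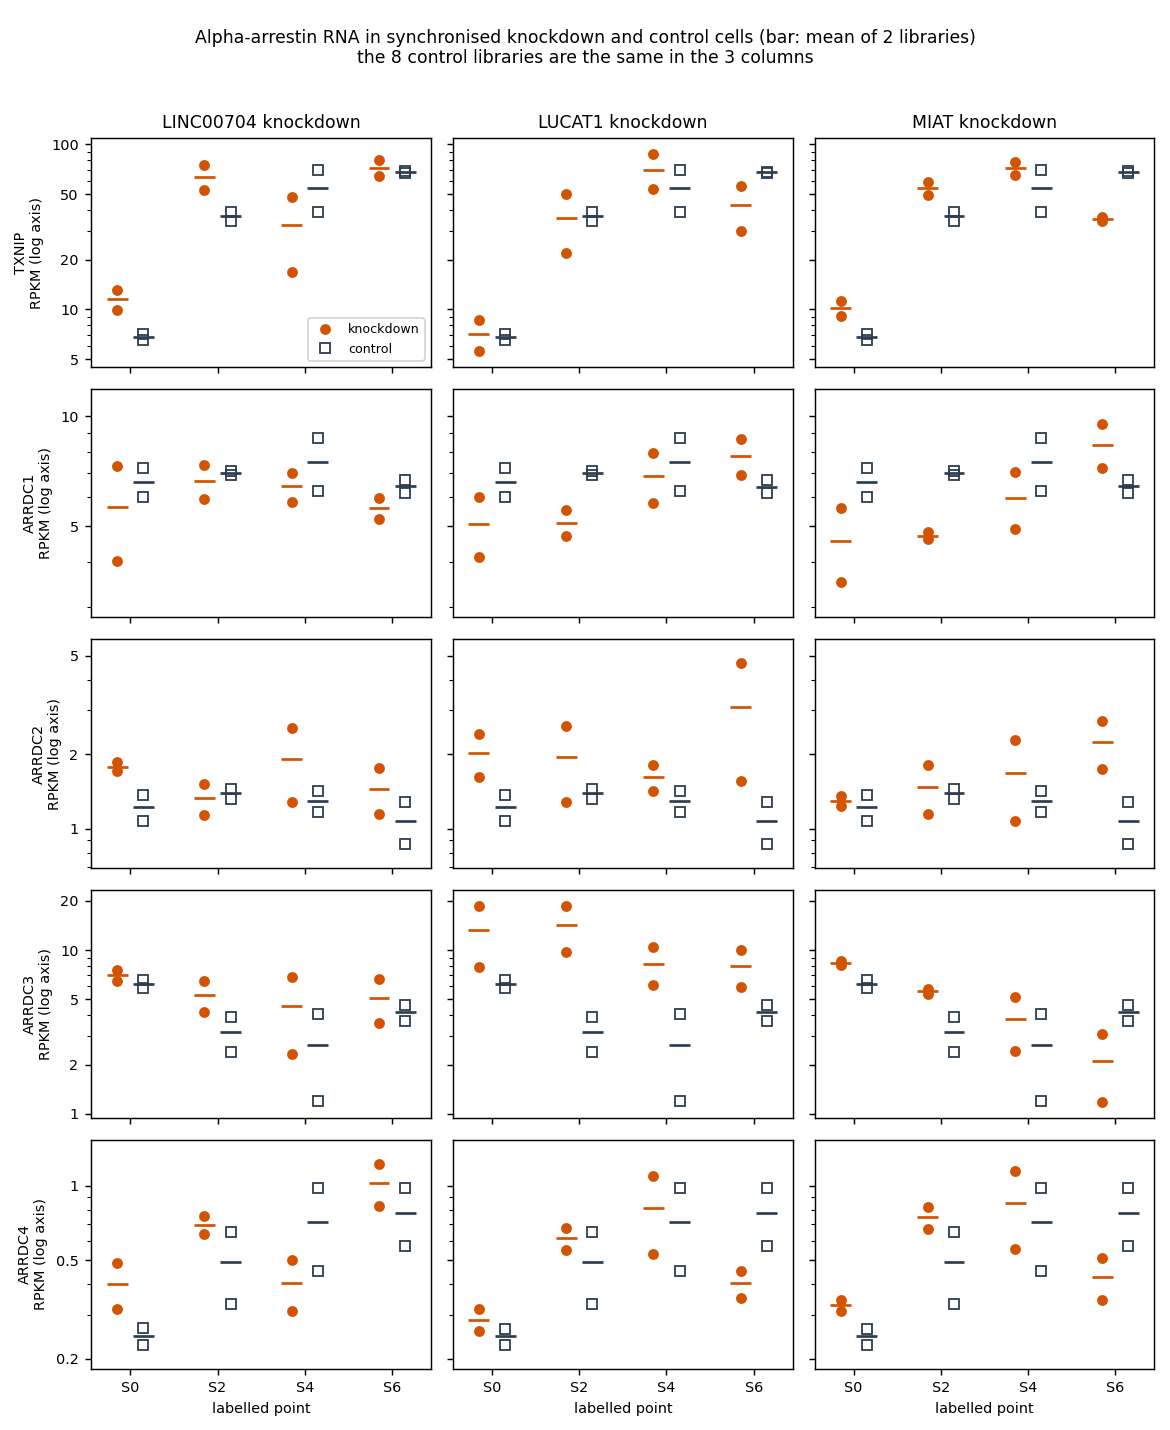
RPKM of the 5 genes (log axis) at S0, S2, S4 and S6 in knockdown (filled orange circles, left) and control cells (open squares, right) for 3 knockdowns, with bars at the mean of 2 libraries. ARRDC3 under LUCAT1 knockdown lies above its controls at all 4 points, and the 8 control libraries are shared by the 3 columns.

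ARRDC2 also passed under LUCAT1 knockdown, by a small margin. It had 2.41 and 1.62 RPKM in knockdown against 1.07 and 1.37 in control cells at S0, and 2.60 and 1.28 against 1.32 and 1.45 at S2. At S4 it had 1.80 and 1.42 against 1.42 and 1.17, and at S6 1.55 and 4.66 against 0.868 and 1.28. The groups were apart at S0 and S6 and overlapped or touched at S2 and S4. The mean difference was 0.60 ± 0.21 (limma adjusted p = 0.0457), and it passed in 5 of 22 alternatives, with adjusted p from 0.00991 to 0.114. TXNIP (-0.11 ± 0.23), ARRDC1 (-0.17 ± 0.14) and ARRDC4 (-0.03 ± 0.17) did not pass.

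In asynchronous cells, LUCAT1 had 0.311, 0.128 and 0.124 RPKM in its knockdown against 0.469 and 0.495 in controls, so the first library kept the most. ARRDC3 had 7.01, 10.7 and 7.11 RPKM in LUCAT1 knockdown against 5.51 and 6.58 in control cells, all 3 above both controls. Its difference of 0.41 ± 0.24 did not pass (limma adjusted p = 0.335). ARRDC2 had 1.34, 3.14 and 3.67 against 1.58 and 1.18, and only the first knockdown library lay within the control range. Its difference was 0.77 ± 0.40 (limma adjusted p = 0.295), and without that library 1.17 (adjusted p = 0.00267), when 48.1% of all genes passed. TXNIP ran the other way, with 22.8 in the first knockdown library and 13.3 and 11.3 in the others, against 14.3 and 13.0 in control cells (0.14 ± 0.32), and ARRDC1 differed by 0.23 ± 0.21. None of the 4 tested genes passed with limma, where 0.209% of all genes did, and none had an unadjusted p under 0.05. The summed pigment epithelium markers in these libraries were 58.8, 19.2 and 19.7 RPKM in knockdown against 82.7 and 88.3 in control cells, lowest in knockdown libraries 2 and 3, and their part in these values was not tested. In the authors' deposited table, ARRDC2 had a log2 fold change of 0.92 (FDR 6.18e-05) and ARRDC3 0.44 (FDR 0.106), with 44.6% of its genes at an FDR under 0.05.

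**Figure D4:**
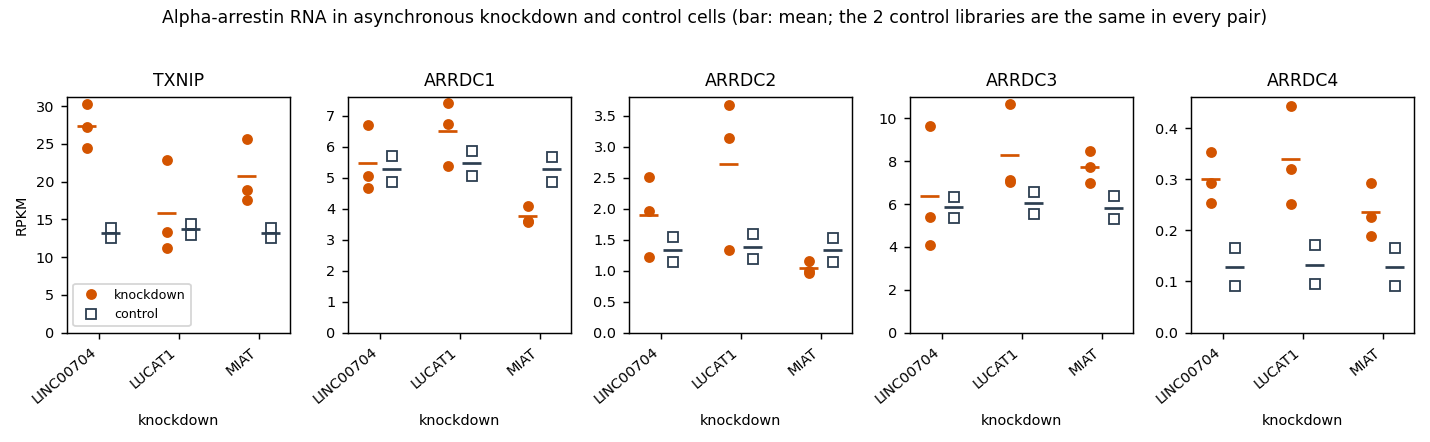
RPKM of the 5 genes in asynchronous knockdown (left of each pair) and control cells (right), with the axis from 0 and 3 and 2 libraries a group. TXNIP under LINC00704 knockdown lies at 24.5 to 30.3 RPKM, above both controls at 12.5 and 13.9.

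LINC00704 knockdown in asynchronous cells had more TXNIP RNA in each library, at 27.2, 24.5 and 30.3 RPKM against 13.9 and 12.5 in control cells. The difference was 1.03 ± 0.17, exceeded by 43 of 8975 genes, but it did not pass (limma unadjusted p = 0.000423, adjusted p = 0.131). With the replicate number as a block it was 0.96 with an adjusted p of 0.0333, when 1.7% of all genes passed against 0.0557% without. In the authors' deposited table, TXNIP had a log2 fold change of 1.05 (FDR 0.00983), with 7.41% of its genes at an FDR under 0.05. ARRDC3 (0.04 ± 0.33), ARRDC2 (0.40 ± 0.28) and ARRDC1 (0.04 ± 0.20) did not pass. In synchronised cells, TXNIP had 13.1 and 9.93 RPKM in knockdown against 6.54 and 7.11 in control cells at S0 and 74.7 and 52.6 against 34.5 and 38.8 at S2. At S4 it had 16.8 and 47.7 in knockdown against 39.2 and 69.9, and at S6 64.8 and 80.0 against 66.7 and 68.5. The groups were apart, with the knockdown higher, at S0 and S2, and overlapped at S4 and S6. The mean over points was 0.18 ± 0.22, and none of the 5 genes passed with limma (0 at an unadjusted p under 0.05), where 0.0212% of all genes did. ARRDC3 under LINC00704 knockdown had 7.58 and 6.45 RPKM against 5.90 and 6.58 in control cells at S0, 4.17 and 6.47 against 2.38 and 3.92 at S2, 6.83 and 2.32 against 1.20 and 4.09 at S4, and 3.59 and 6.66 against 3.71 and 4.65 at S6. Its groups were apart only at S2, and the mean difference was 0.47 ± 0.26. ARRDC4 followed TXNIP at S0, with 0.486 and 0.319 against 0.265 and 0.228, and over the points differed by 0.14 ± 0.16, ARRDC2 by 0.30 ± 0.15 and ARRDC1 by -0.18 ± 0.15.

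MIAT knockdown in asynchronous cells moved 3 of the 4 tested genes, in a comparison where 43.7% of all genes passed, 12.6% higher and 31.1% lower. TXNIP rose to 25.7, 18.8 and 17.5 RPKM in knockdown against 13.8 and 12.5 in control cells (0.62 ± 0.17, limma adjusted p = 0.0250). ARRDC3 rose to 6.98, 7.75 and 8.46 against 5.32 and 6.35 (0.39 ± 0.13, adjusted p = 0.0405). ARRDC1 fell to 3.61, 4.09 and 3.57 against 5.67 and 4.88 (-0.46 ± 0.11, adjusted p = 0.0150). The 2 groups were apart for each of these genes. ARRDC1-AS1, the antisense gene whose end overlaps that of ARRDC1 at chr9:137615332 to 137615360, fell as well. It had 3.80 to 4.14 RPKM in knockdown against 5.81 and 5.82 in control cells (-0.52, limma adjusted p = 0.00477). These knockdown libraries were made as strand-specific, but whether strand was used in counting is not stated. Without the first control library TXNIP (0.69), ARRDC3 (0.27) and ARRDC1 (-0.36) did not keep their calls. Without the second, TXNIP (0.55) and ARRDC3 (0.51) lost theirs, while ARRDC2 gained one at -0.47. Each of these fits leaves a single control library, and fewer of all genes were called in both. The losses are thus not particular to these genes. With the replicate block ARRDC1 (limma adjusted p = 0.0566) and ARRDC3 (0.0705) did not pass, when 36.6% of all genes did. That block again takes the third knockdown library out of the difference. ARRDC1 was also lost under quantile scaling, at -0.23 (adjusted p = 0.145), and ARRDC3 without knockdown library 2 (0.0997) or 3 (0.0991). KRT8 fell in these cells too (-0.71), with summed pigment epithelium markers at 53.2, 60.3 and 52.8 RPKM in knockdown against 79.8 and 85.3 in control cells, and their part in the result was not tested. ARRDC2 had 1.15, 0.964 and 0.985 against 1.53 and 1.14 and did not pass (-0.30 ± 0.13, adjusted p = 0.0966). In the authors' deposited table, the log2 fold changes were 0.65 for TXNIP (FDR 0.00120), 0.40 for ARRDC3 (FDR 0.000792), -0.48 for ARRDC1 (FDR 0.00137) and -0.34 for ARRDC2 (FDR 0.00309), with 56.8% of its genes at an FDR under 0.05.

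In synchronised MIAT-knockdown cells, where 7.63% of all genes passed, none of the 5 genes did (limma, 0 at an unadjusted p under 0.05 for the mean over points). TXNIP had 11.2 and 9.18 RPKM in knockdown against 6.54 and 7.11 in control cells at S0, and 58.9 and 49.7 against 34.5 and 38.8 at S2. At S4 it had 65.1 and 78.0 against 39.2 and 69.9, and at S6 36.3 and 34.2 against 66.7 and 68.5. The knockdown libraries were thus above the controls at S0 and S2, overlapped them at S4 and were below them at S6 (-0.93 ± 0.31 at that point). The test of a change among points gave an unadjusted p of 0.0111 and an adjusted p of 1 for TXNIP (limma), and 0% of all genes passed it under MIAT or LINC00704 knockdown. At S6, ARRDC4 was also below both controls, at 0.508 and 0.345 RPKM against 0.572 and 0.975. The same point under LUCAT1 knockdown had TXNIP at 56.0 and 29.8 and ARRDC4 at 0.454 and 0.351 against the same control libraries. ARRDC3 differed by 0.20 ± 0.26, ARRDC2 by 0.32 ± 0.16, ARRDC1 by -0.26 ± 0.15 and ARRDC4 by 0.07 ± 0.17 over the points.

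ARRDC4 was below the filter in asynchronous cells and was not tested there. It had 0.293, 0.255 and 0.353 RPKM in LINC00704 knockdown against 0.0918 and 0.166 in control cells, 0.253, 0.445 and 0.321 in LUCAT1 knockdown against 0.0946 and 0.172, and 0.294, 0.189 and 0.227 in MIAT knockdown against 0.0912 and 0.166. All 9 knockdown libraries lay above the controls, which are the same 2 libraries in each comparison, scaled per table. In the authors' deposited tables, ARRDC4 had log2 fold changes of 0.81 (FDR 0.00691) under LINC00704, 0.91 (FDR 2.61e-05) under LUCAT1 and 0.56 (FDR 0.00144) under MIAT knockdown. In synchronised cells ARRDC4 did not pass in any of the 3 knockdowns.

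**Figure D5:**
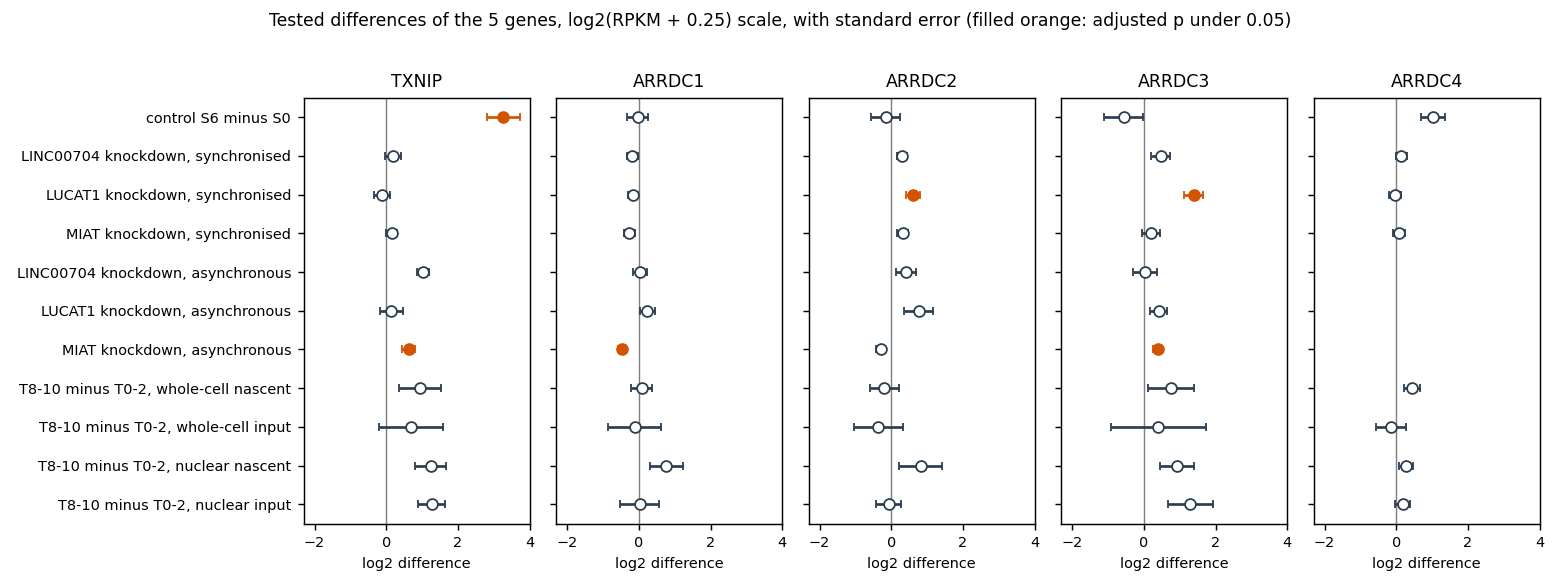
Tested log2 differences of the 5 genes (points, with standard error bars, on the log2(RPKM + 0.25) scale), 1 row per comparison, filled orange where the adjusted p is under 0.05. TXNIP passes in the control course and in asynchronous MIAT knockdown, ARRDC3 under LUCAT1 knockdown and in asynchronous MIAT knockdown, and ARRDC4 in no comparison shown.

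Genes that work with the alpha-arrestins were counted from lists chosen with earlier results of these data known. In synchronised LUCAT1 knockdown, 4 of 14 tested genes of the thioredoxin and glutaredoxin system rose and 1 fell, with a list median of 0.23 against 0.11 for all genes. They were TXN (0.63), the thioredoxin that TXNIP binds, GLRX3 (0.61), TXNL1 (0.42) and GLRX2 (0.32), and the peroxiredoxin PRDX5 fell by 0.48. Of 16 FOXO factors and targets, KLHL24 (0.75), KLF9 (0.55), GADD45A (0.50) and FOXO3 (0.36) rose and YPEL3 fell by 0.70. Of 9 genes of glucose uptake and phosphorylation, SLC2A3 rose (0.57), while SLC2A1, which encodes GLUT1, fell by 0.62, HK2 fell by 0.60 and G6PC3 fell by 0.66. Of 7 NEDD4-family ligases SMURF1 rose (0.42), of 11 ESCRT genes CHMP4C rose (0.36), of 5 arrestin-fold relatives VPS26A rose (0.63), and of 5 reported cargo genes the metal transporter SLC11A2 rose (0.47) and SLC2A1 fell. Of 9 Mondo and MYC-MAX network genes, MXD3 fell by 0.65. These shares stand against 27.2% over all genes.

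In asynchronous MIAT knockdown, 1 of 14 thioredoxin-system genes rose, TXNL1 (0.32), and 4 fell, among them PRDX4 (-0.68) and the mitochondrial thioredoxin TXN2 (-0.49). Of 8 glucose genes 4 fell, among them the transporter SLC2A6 (-0.90) and the glycolytic enzyme GPI (-0.55), and none rose. Of 8 Mondo and MYC-MAX genes MXD1 rose (0.31), whereas MXD3 (-0.95), MXD4 (-0.65) and MLXIP (-0.44), which encodes MondoA, fell. Of 13 FOXO genes FBXO32 (0.69) and BTG1 (0.62) rose and CDKN1B (-0.59) and FOXO4 (-0.43) fell. In the remaining lists NEDD4L (0.25) rose, and WWP2 (-0.30), HGS (-0.47), VPS26B (-0.31) and NOTCH1 (-0.71) fell. The counts given with a number tested stand against 43.7% over all genes. No share was formed for the remaining lists, so their genes are named only. With 43.7% of all genes called, these names are no result about those lists.

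In the control course, 2 of 9 glucose genes passed between S6 and S0 and both fell, against 0.871% over all genes. They were HK2 (by 1.75), which encodes a hexokinase, and SLC2A3 (by 1.17), which encodes GLUT3. Any relation of these falls to TXNIP or to the block was not tested. Of 9 Mondo and MYC-MAX genes, MXI1 fell by 1.52. HK2 also fell between T8-10 and T0-2, by 1.70 in nuclear nascent and by 2.17 in nuclear input RNA, against 0.358% and 0.415% over all genes. No other listed partner gene passed in these 2 contrasts. In synchronised MIAT knockdown, FBXO32 rose (0.60), and YPEL3 (-0.75), PRDX5 (-0.64) and ARRB2 (-0.52) fell. There 7.63% of all genes passed, and no share of the lists was formed to set against it. These names are therefore no result about the lists. No partner gene passed in the other knockdown comparisons.

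Across 24 group means of the 4 fraction tables, centred within each table, and 8492 genes, the profiles closest to TXNIP by Pearson correlation were those of ANKRA2 (0.952), TIGAR (0.952), RRM2B (0.951), BTG2 (0.951) and STOM (0.949). ARRDC4 ranked 35th with 0.892 and ARRDC3 545th with 0.711, while ARRDC1 and ARRDC2 both stood at 0.508. The profiles closest to ARRDC3 were CDKN1B (0.925), LRIG3 (0.852), ARSD (0.839), PBXIP1 (0.836) and PIK3IP1 (0.835). Those closest to ARRDC4 were ZNF274 (0.946), RCBTB2 (0.936), ZNF530 (0.928), TM7SF3 (0.925) and ATG4A (0.914). These means share libraries, depth and scaling within a table, so the values describe likeness only. They include the asynchronous groups, so the likeness to TXNIP draws on the same difference that chose TXNIP.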

How the data were processed

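For the nascent and strand-specific RNA libraries, STAR 2.5.3, featureCounts 1.6.1 and edgeR are named with the build hg38, without their roles, per the submitters' processing notes. The deposited values are RPKM per gene, made by the authors, and the fold and log2 ratio, p-value and FDR columns of the 3 asynchronous tables are the authors' own, by a test not named in the files. RPKM steps gave whole reads (within 0.05, for values up to 200 reads), used only for depth. Tables were scaled separately, so tests stay within 1 table. The 8 synchronised and 2 asynchronous control libraries are shared by the knockdown comparisons, which are therefore not independent. Knockdown columns of the synchronised tables carry other replicate numbers than the labels and were assigned to groups only. A further 66 columns hold the authors' means and fold values and were not used as libraries. The 5 chromatin samples, and ARRDC3-AS1, were not analysed here.

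Tests were made in limma 3.58.1 (R 4.3.3) with group means, eBayes with a trend, a pseudocount of 0.25, a filter of 0.5 RPKM in 2 libraries and Benjamini-Hochberg adjustment over all genes of a table, and were tested on simulated data. Alternatives were pseudocounts of 0.1 and 1, other filters, quantile and median scaling, each library left out, and a replicate block. Same-numbered libraries deviated together in nuclear input RNA (correlations of 0.627 to 0.861 between pairs), so the numbers are taken to pair those libraries. Figures were drawn with matplotlib 3.10.9 from tables made with pandas 2.3.3. Named genes were the 5 members, antisense partners, knockdown targets, the called members of the lists and the 5 closest profiles. The members and lists were chosen with earlier results of these data known.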

Additional observations from a re-analysis of the deposited data

How the results depend on the processing

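Over the 5 genes, 2166 alternative values were computed, of which 32 lost the call, 6 gained it and 17 untested differences moved by more than the spread. Of 1345 signed differences 48 took the other sign, 39 in tested comparisons, where none was called on either side, and 9 in windows minus asynchronous. With the replicate block, nuclear input calls went to 1 gene among windows and 2 for T8-10 against T0-2 (0 without), asynchronous LINC00704 knockdown to 1 (0 without) and asynchronous MIAT knockdown to 1 (3 without), and it changed no other count of called members. Over all genes the block moved nuclear input T8-10 against T0-2 to 2142 (40 without), asynchronous LINC00704 knockdown to 153 (5 without) and asynchronous LUCAT1 knockdown to 482 (20 without). In the asynchronous knockdown comparisons the block takes the third knockdown library out of the difference, and pairing by number was not examined there. No paired analysis was possible for the synchronised knockdowns because their columns carry other numbers than the labels; same-numbered libraries correlated at -0.562 to 0.939 in the input and -0.269 to 0.594 in the nascent whole-cell libraries and -0.308 to 0.402 in nuclear nascent RNA, and at 0.0725 to 0.753 among synchronised controls. For synchronised LUCAT1 knockdown the count was 1 with a pseudocount of 1, no filter, quantile scaling or median centring, and 1 to 2 with a library left out. The count among control points was 0 with quantile scaling and 0 to 1 with a library left out; for S6 against S0 it was 0 to 1 with a library left out and kept at 1 otherwise. Leaving out a library gave 0 to 1 for asynchronous LUCAT1 knockdown and 0 to 3 for asynchronous MIAT knockdown; over all genes, asynchronous LUCAT1 knockdown had 4596 without its first knockdown library, and synchronised LINC00704 knockdown reached 1037 without 1 S0 knockdown library (2 with it). The cause was not tested. A pseudocount of 1 put the ARRDC4 windows difference at 0.85, 0.58, 0.95 and 0.93 in the 4 fractions.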
